A study of Mus musculus with 16 samples.

Results

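The machinery that shortens poly(A) tails, removes caps and silences microRNA targets was followed through 44 genes: the 11 subunits of CCR4-NOT, 3 other deadenylases, 4 TOB and BTG adaptors, 11 factors of decapping and of the decay that follows it, 6 Argonaute and GW182 proteins, 5 sequence-specific recruiters, and 4 poly(A) binding, cap and nonsense-mediated decay factors. The genes were chosen by name, as CCR4-NOT and other factors of mRNA decay and silencing, from 20622 genes of the deposited tables. The rule uses no measured value, but the list was chosen with earlier results of these data known. Fragments protected by ribosomes (RPFs) and total RNA of the cytoplasm were sequenced from 4 replicates of KMNTC and 4 of KM4A2cr cells, 16 libraries in all, and the RPFs and total RNA of a replicate came from the same lysate. KM cells are a line derived from lung tumours of a genetically engineered mouse that carried Rosa26 LSL-MYC/LSL-MYC alleles, so both cell lines share transgenic MYC. KM4A2cr is a pool of 4 eIF4A2-negative clones transduced with a lentiviral CRISPR vector against *Eif4a2* and selected with puromycin, KMNTC carries a non-targeting guide, and all cells were untreated. The replicates were separate experiments plated and harvested on different days, whereas each cell line was made once, so p-values measure the spread between cultures of these lines and not between independent knockouts.

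CCR4-NOT is the main cytoplasmic deadenylase of mammalian cells. CNOT1 is the scaffold, CNOT7 or CNOT8 and CNOT6 or CNOT6L are the paired catalytic subunits, and the other subunits dock RNA-binding partners. Argonaute proteins loaded with microRNAs bring in GW182 (TNRC6) proteins, which recruit CCR4-NOT, after which DDX6, the DCP1-DCP2 decapping enzyme and the exonuclease XRN1 repress or destroy the mRNA. eIF4A2 is a DEAD-box helicase, a paralogue of the translation initiation factor eIF4A1, and has been found in complex with CCR4-NOT.

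The libraries held between 4512403 and 9621848 RPF counts and between 5350919 and 9312622 total RNA counts. *Eif4a2* itself stood at 97.7, 122, 99.8 and 389 TMM-normalised RPF CPM (counts scaled per-million of the library total) in KMNTC replicates 1 to 4, and at 51.0, 88.4, 74.8 and 346 CPM in KM4A2cr. Its footprints were thus lower in KM4A2cr within all 4 pairs, although replicate 4 of both lines lay far above the others and the groups overlap. The RPF log2 fold change was -0.49 (SE 0.15, adjusted p = 0.0941 by edgeR), and without replicates 1, 2, 3 or 4 the adjusted p was 0.300, 0.377, 0.351 or 0.00304. *Eif4a2* mRNA changed by -0.18 on the log2 scale (SE 0.13, adjusted p = 0.504 by edgeR), and counts of fragments do not show whether the reading frame is intact. In bulk samples such as these, fewer expressing cells and less RNA per cell cannot be told apart. The paralogue *Eif4a1* had an RPF log2 fold change of -0.26 (SE 0.12, adjusted p = 0.230 by edgeR), below 0 in 4 of 4 pairs. All 6 epithelial markers were above 1 TPM (transcript abundance, per-million of all transcripts), with a summed level of 4174 to 5206 TPM in KMNTC and 4307 to 5918 TPM in KM4A2cr. The surfactant genes *Sftpc* and *Sftpb*, taken here as alveolar type II markers, were listed at 0 in all 8 total RNA libraries, and *Nkx2-1* did not exceed 0.12 TPM. The paper states that KM cell identity was assessed by markers that included surfactant protein C, encoded by *Sftpc*. The values here are of RNA in the sequenced cultures only. Of the 8 alveolar type II markers only the lipid transporter *Abca3* was well above 1 TPM, and their summed level was 29.4 to 35.8 TPM in KMNTC and 37.5 to 49.2 TPM in KM4A2cr. Fibroblast markers summed to at most 3.03 TPM and endothelial markers to at most 2.13 TPM. Of the 6 immune markers, *Cd68*, a lysosomal gene, was the only one above 1 TPM (summed level 33.4 to 221 TPM in KMNTC and 37.5 to 155 TPM in KM4A2cr), and the leukocyte gene *Ptprc* did not exceed 0.67 TPM.

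All 44 members were above 1 TPM in all 8 total RNA libraries, but their levels spanned a wide range. TPM values are counts scaled by transcript length, so they can be compared between genes. Within CCR4-NOT, mRNA of the deadenylase *Cnot7* was the highest, at 117 ± 22.5 TPM in KMNTC and 103 ± 34.3 TPM in KM4A2cr (SD, n = 4). The scaffold *Cnot1* followed at 59.1 ± 15.2 and 52.0 ± 16.3 TPM, and *Cnot2* at 42.2 ± 6.81 and 32.8 ± 5.19 TPM, which overlap with *Cnot1* within their spread. Among the catalytic paralogues, *Cnot7* therefore lay above *Cnot8* (24.8 ± 6.17 and 19.6 ± 7.15 TPM), while *Cnot6* (34.2 ± 11.0 and 30.4 ± 13.5 TPM) and *Cnot6l* (19.9 ± 1.42 and 17.0 ± 2.83 TPM) were closer together. *Cnot3* had the lowest level of the complex, with 6.97 ± 1.52 and 5.94 ± 1.87 TPM.

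Outside the complex, the poly(A) binding protein *Pabpc1* had the highest mRNA level of the 44 genes, at 732 ± 229.8 TPM in KMNTC and 708 ± 133 TPM in KM4A2cr. *Btg1* (237 ± 31.6 and 223 ± 24.0 TPM), an antiproliferative adaptor that binds CNOT7, and *Pum2* (229 ± 39.0 and 202 ± 48.2 TPM), a Pumilio protein that binds UGU-containing elements, were next in KMNTC, while in KM4A2cr *Pabpc4*, the other cytoplasmic poly(A) binding protein (189 ± 11.1 and 204 ± 28.9 TPM), lay level with *Pum2*. *Ago2*, the Argonaute with slicer activity, was the main Argonaute at 20.6 ± 1.59 and 20.3 ± 2.68 TPM, above *Ago1* (8.77 ± 2.25 and 7.43 ± 3.01 TPM) and *Ago3* (3.88 ± 0.744 and 4.36 ± 0.481 TPM). Of the GW182 genes, *Tnrc6a* stood at 17.3 ± 2.40 and 17.7 ± 5.404 TPM, with *Tnrc6b* and *Tnrc6c* between 3.12 and 3.65 TPM on average. *Pan2*, the catalytic subunit of the other cytoplasmic deadenylase complex, had the lowest average level of all 44 genes, 2.76 TPM in either line, whereas its partner *Pan3* had 19.1 ± 1.41 and 17.6 ± 2.27 TPM.

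**Figure D1:**
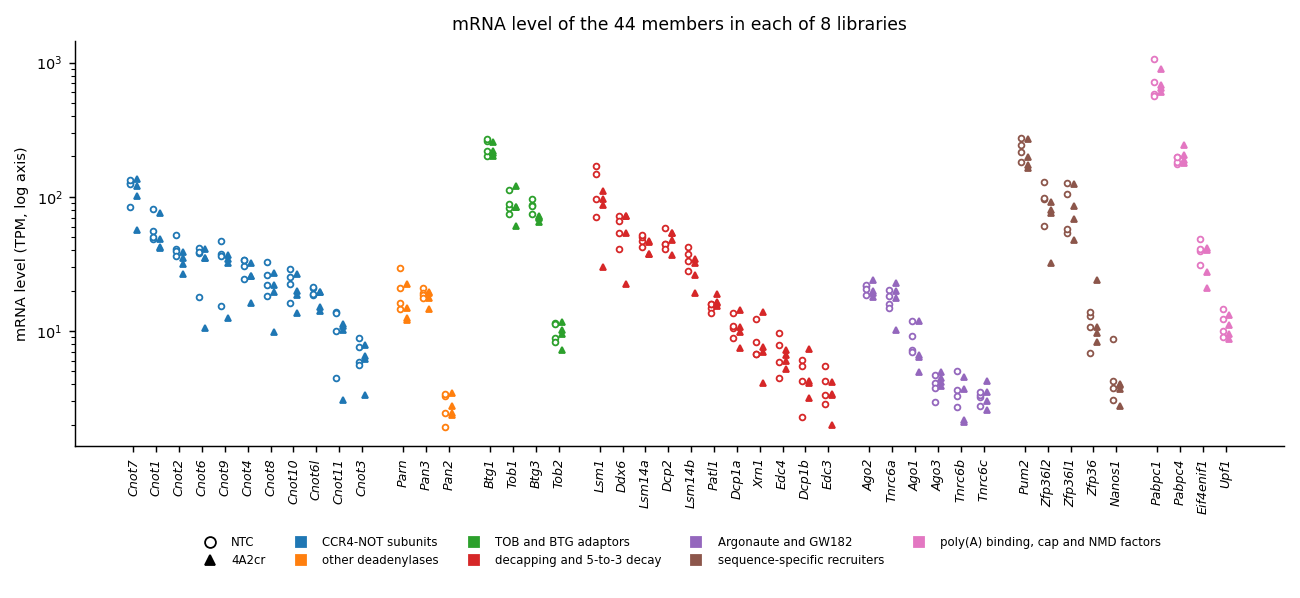
Cytoplasmic mRNA level of each of the 44 genes on a log axis of TPM, with open circles for the 4 KMNTC and filled triangles for the 4 KM4A2cr libraries, coloured by role. *Pabpc1* is the highest at 732 TPM on average in KMNTC and *Pan2* the lowest at 2.76 TPM, and the points of both cell lines overlap for most genes.

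The first question was whether targeting *Eif4a2* altered the mRNA or the footprints of these genes. Very few of them were called as changed. In RPFs, 42 genes were tested and 1 rose past the adjusted p of 0.1, the deadenylase *Cnot6*, while 0 fell, against 6.6% of all tested genes that rose and 3.72% that fell. The 3 with an unadjusted p under 0.05 in RPFs (7.14%, against 23.4% of all tested genes), *Cnot6*, *Ago1* and *Eif4enif1*, all had higher values, and DESeq2 called 0 in either direction. In total RNA, 0 of the 44 genes were called in either direction by edgeR, against 4.35% higher and 1.78% lower of all tested genes, and 4 had an unadjusted p under 0.05 (9.09%, against 18.3% of all tested genes). DESeq2 also called 0 genes in total RNA. The median log2 fold change of the 42 genes was 0.03 in RPFs, with 23 above 0 and 19 below, and that of the 44 genes in total RNA was -0.01, with 21 above 0 and 23 below. Over all tested genes the medians were -0.01 and 0.01.

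The intervals bound how large these changes could be. The 95% interval of the RPF log2 fold change lay within ±1, that is under a doubling or halving, for 41 of 42 genes (97.6%), against 85.6% of all tested genes. In total RNA it did so for all 44 genes, against 90.2% of all genes. The same direction in all 4 replicate pairs was seen for 9 of 42 genes in RPFs (21.4%, against 30.1% of all genes) and for 8 of 44 in total RNA (18.2%, against 25.4%).

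Translational efficiency was the second question. It asks whether footprints changed by a different factor from mRNA, and it was tested as a line-by-assay interaction over the 16 libraries. Here 5 of 42 genes (11.9%) rose in KM4A2cr, *Cnot6*, *Btg1*, *Btg3*, *Ago1* and *Eif4enif1*, against 1.87% of all tested genes, and 0 fell, against 1.04%. These calls were not stable, as 0 of the 5 were made without replicate 1, 2 or 3. DESeq2 called *Cnot6* alone, with an adjusted p of 0.134 for *Btg1*, 0.109 for *Btg3* and 0.118 for *Eif4enif1* and none given for *Ago1*. Higher efficiency calls over all tested genes fell as well, from 187 to 5, 33 and 12 without replicates 1, 2 and 3, and to 105 under DESeq2. The median over the 42 genes was nevertheless -0.03, with 18 above 0 and 24 below, beside a median of -0.02 over all tested genes. The 10 genes with an unadjusted p under 0.05 (23.8%, against 14.1% of all tested genes) held 4 with lower values, *Dcp1a*, *Edc4*, *Ago3* and *Upf1*, and a higher value of *Zfp36l2*, none of which passed the adjusted threshold. All calls in the 3 comparisons depend on the pairing of same-numbered replicates, since without the replicate number as a block 0 genes were called by edgeR, members or others.

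**Figure D2:**
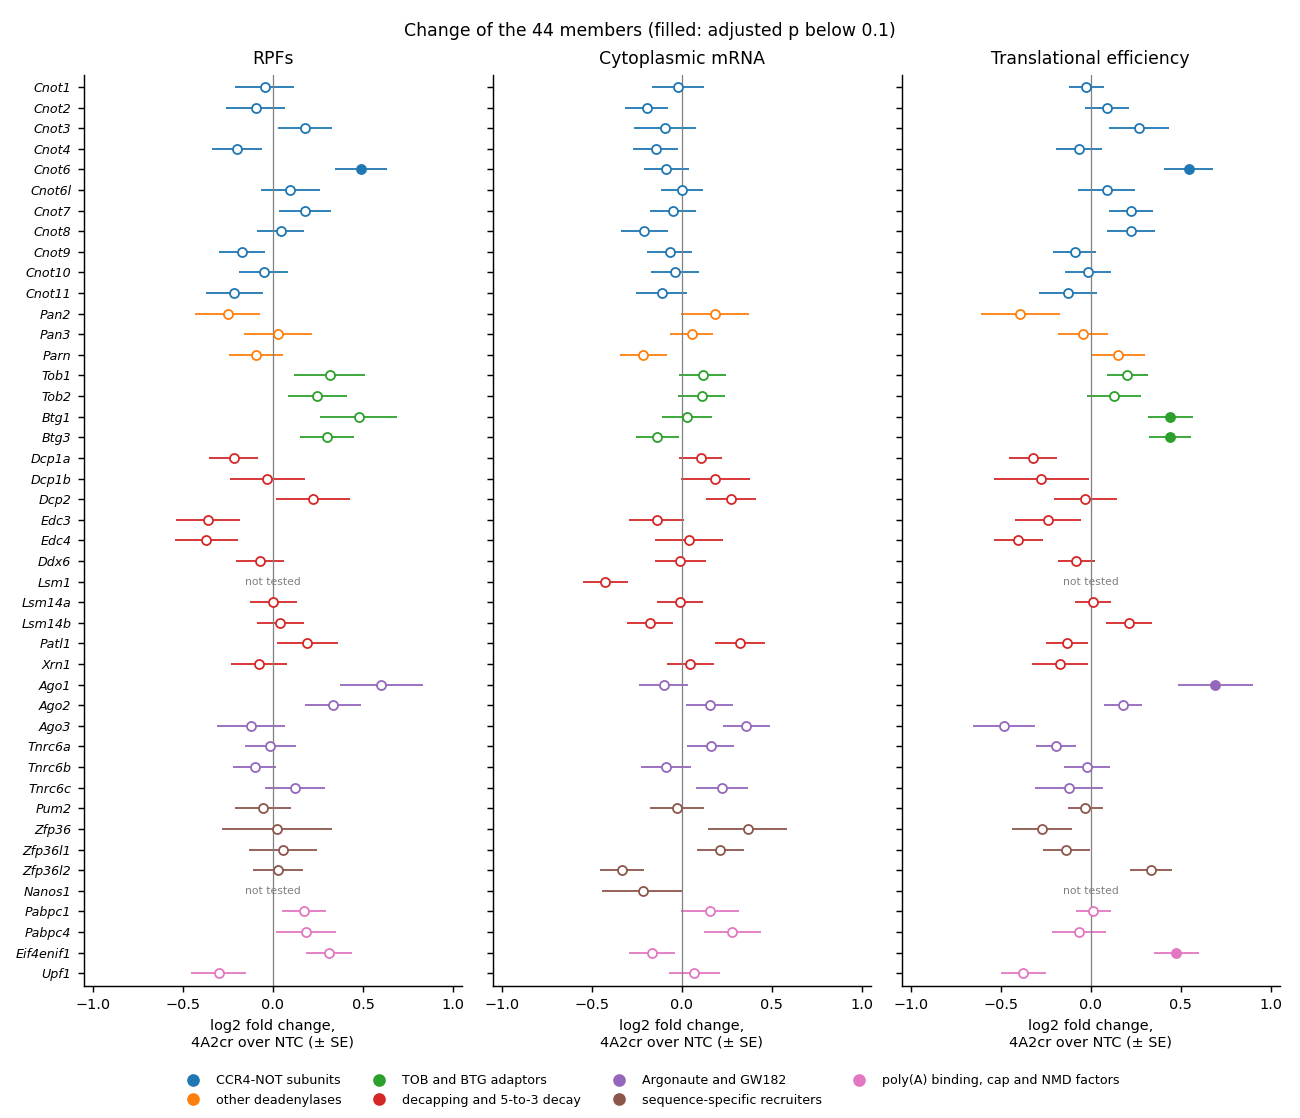
Log2 fold change of KM4A2cr over KMNTC with its standard error (edgeR, 4 replicate pairs) for each gene in RPFs, cytoplasmic mRNA and translational efficiency, coloured by role. Filled points passed an adjusted p of 0.1: *Cnot6* in RPFs, none in mRNA, and *Cnot6*, *Btg1*, *Btg3*, *Ago1* and *Eif4enif1* in translational efficiency.

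Within CCR4-NOT, *Cnot6* was the only one of 11 subunits called, and it was called for footprints and for translational efficiency. RPFs of *Cnot6* stood at 12.0, 8.64, 13.7 and 4.83 CPM in KMNTC replicates 1 to 4 and at 17.9, 12.1, 19.5 and 5.92 CPM in KM4A2cr. Every KM4A2cr library was above the KMNTC library of the same number, by 0.56, 0.47, 0.50 and 0.28 on the log2 scale. The groups nevertheless overlap. Replicate 4 was low in both lines, and replicate 3 of KMNTC (13.7 CPM) also lay above replicate 2 of KM4A2cr (12.1 CPM). The RPF log2 fold change was 0.49 (SE 0.15, 95% interval 0.16 to 0.82, adjusted p = 0.0932 by edgeR). *Cnot6* mRNA showed no such shift, with 119.9, 111, 125 and 69.2 CPM in KMNTC and 116, 117, 121 and 54.4 CPM in KM4A2cr (log2 fold change -0.09, SE 0.12, adjusted p = 0.768 by edgeR). Dividing RPF CPM by mRNA CPM gave 0.0894 ± 0.0188 in KMNTC and 0.132 ± 0.0297 in KM4A2cr (SD, n = 4), and the translational efficiency changed by 0.54 (SE 0.14, adjusted p = 0.0533 by edgeR), with all 4 pairs on the higher side.

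These *Cnot6* values rest on 22 to 148 RPF counts per library. With replicate 1, 2 or 3 left out, the adjusted p of the RPF change was 0.268, 0.378 or 0.326 and that of translational efficiency 0.366, 0.187 or 0.220, while without replicate 4 both were 0.0197. Fragments that *Cnot6* and its paralogue *Cnot6l* have in common could have been assigned to either gene, as could those of *Cnot7* and *Cnot8*.

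The other catalytic subunits did not pass the threshold in any of the 3 comparisons. *Cnot6l*, the alternative partner in the same position, had 9.41, 9.03, 7.396 and 12.4 RPF CPM in KMNTC and 11.1, 7.38, 8.14 and 15.3 CPM in KM4A2cr, with overlapping groups and a log2 fold change of 0.10 (95% interval -0.28 to 0.47). Its mRNA was 57.5, 50.5, 52.2 and 65.9 CPM in KMNTC and 56.6, 53.3, 51.5 and 64.5 CPM in KM4A2cr, and differed by 0.00 on the log2 scale. RPFs of *Cnot6l* were counted on an isoform of 2089 nt with 19.8% of the gene's total RNA counts, against 8564 nt for the longest. *Cnot7* RPFs were 25.1, 13.3, 17.1 and 13.2 CPM in KMNTC and 25.2, 13.4, 23.4 and 15.9 CPM in KM4A2cr. The log2 fold change of *Cnot7* was 0.18 in RPFs (95% interval -0.15 to 0.50) and -0.05 in mRNA (95% interval -0.33 to 0.23). *Cnot8* RPFs were 47.5, 42.0, 29.9 and 31.7 CPM in KMNTC and 43.8, 39.2, 35.1 and 36.1 CPM in KM4A2cr, with a log2 fold change of 0.04 (-0.25 to 0.34). *Cnot8* mRNA was lower in KM4A2cr in all 4 pairs, with 28.2, 29.6, 23.9 and 23.95 CPM in KMNTC against 24.7, 26.2, 23.1 and 17.5 CPM, but its log2 fold change of -0.21 did not pass (adjusted p = 0.445 by edgeR).

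*Cnot1*, on which the complex is assembled, had 173, 164, 165 and 132 RPF CPM in KMNTC and 128, 161, 143 and 188 CPM in KM4A2cr. Replicates 1 to 3 were lower in KM4A2cr and replicate 4 was higher, so the groups overlap and the log2 fold change was -0.05 (95% interval -0.41 to 0.32). *Cnot1* mRNA was 222, 316, 259.8 and 284 CPM in KMNTC against 199.7, 317, 212 and 365 CPM in KM4A2cr, a log2 fold change of -0.02. The docking and regulatory subunits *Cnot2*, *Cnot3*, *Cnot9*, *Cnot10* and *Cnot11* and the ubiquitin ligase *Cnot4* had RPF log2 fold changes between -0.22 (*Cnot11*) and 0.18 (*Cnot3*), none of them called. In mRNA, 10 of the 11 subunits had a log2 fold change below 0, down to -0.21 for *Cnot8*, against 5261 of 10880 tested genes. Of the subunits, 0 were called by edgeR, with 0 at an unadjusted p under 0.05. Without replicate 1 the number below 0 was 7 of 11. It was 11 of 11 under DESeq2, RLE factors, upper-quartile factors, library size only and no filter beyond 1 count. The median of the 11 subunits was -0.09 in mRNA and 0.09 in translational efficiency. The 10 values below 0 are not 10 separate results, because the genes were measured in the same 8 libraries.

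The 3 deadenylases outside CCR4-NOT showed no called change. *Pan2* had an RPF log2 fold change of -0.25 (SE 0.18) and a mRNA change of 0.18 (SE 0.19), with an efficiency of -0.39 (adjusted p = 0.432 by edgeR) that was below 0 in 3 of 4 pairs. *Pan3* lay at 0.03 and 0.05, and the poly(A)-specific ribonuclease *Parn* at -0.10 and -0.21 in RPFs and mRNA. These genes had 42 to 412 RPF counts per library.

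The TOB and BTG proteins bind CNOT7 or CNOT8 and restrain proliferation, and TOB proteins also bind the poly(A) binding protein. All 4 members had RPF log2 fold changes above 0, against 48.9% of all tested genes, from 0.25 for *Tob2* to 0.47 for *Btg1*. Of the 4, 0 passed the RPF threshold. They were measured in the same libraries, so these are not 4 separate results. Replicate 4 carried much of the higher values, since the median difference of the 4 genes was 0.00, 0.26, 0.08 and 0.90 on the log2 scale in pairs 1 to 4. *Btg3* RPFs stood at 40.8, 35.6, 44.8 and 51.2 CPM in KMNTC and at 41.8, 42.2, 50.5 and 87.2 CPM in KM4A2cr. *Btg3* mRNA was level or slightly lower, with 52.3, 51.4, 61.3 and 83.7 CPM in KMNTC and 47.4, 44.03, 54.0 and 83.7 CPM in KM4A2cr. Its RPF to mRNA ratio did not overlap between the lines, 0.780, 0.694, 0.731 and 0.611 in KMNTC against 0.881, 0.958, 0.936 and 1.04 in KM4A2cr. The translational efficiency of *Btg3* rose by 0.44 (SE 0.12, adjusted p = 0.0666 by edgeR), and the adjusted p was 0.195, 0.260, 0.220 or 0.0965 without replicate 1, 2, 3 or 4.

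*Btg1* rose in translational efficiency by 0.44 as well (SE 0.13, adjusted p = 0.0893 by edgeR), but with a different pattern over the replicates. Its RPFs were 72.1, 38.02, 60.5 and 60.6 CPM in KMNTC and 68.7, 63.0, 62.0 and 143 CPM in KM4A2cr. Only replicates 2 and 4 were clearly higher in KM4A2cr, and the value of replicate 4 lay apart from the other 3. *Btg1* mRNA was 407, 247, 331 and 478 CPM in KMNTC and 355, 282, 325 and 532 CPM in KM4A2cr. The efficiency change shrank to 0.25 without replicate 4 (adjusted p = 0.183 by edgeR), and the adjusted p was 0.209, 0.338 or 0.211 without replicate 1, 2 or 3. RPFs of *Btg1* were aligned to an isoform of 668 nt that held 10.0% of the gene's total RNA counts, and with the mRNA counts of that isoform alone the efficiency change was 0.34 (adjusted p = 0.204 by edgeR). *Tob1* (RPF 0.31, mRNA 0.12) and *Tob2* (0.25 and 0.11) were not called.

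**Figure D3:**
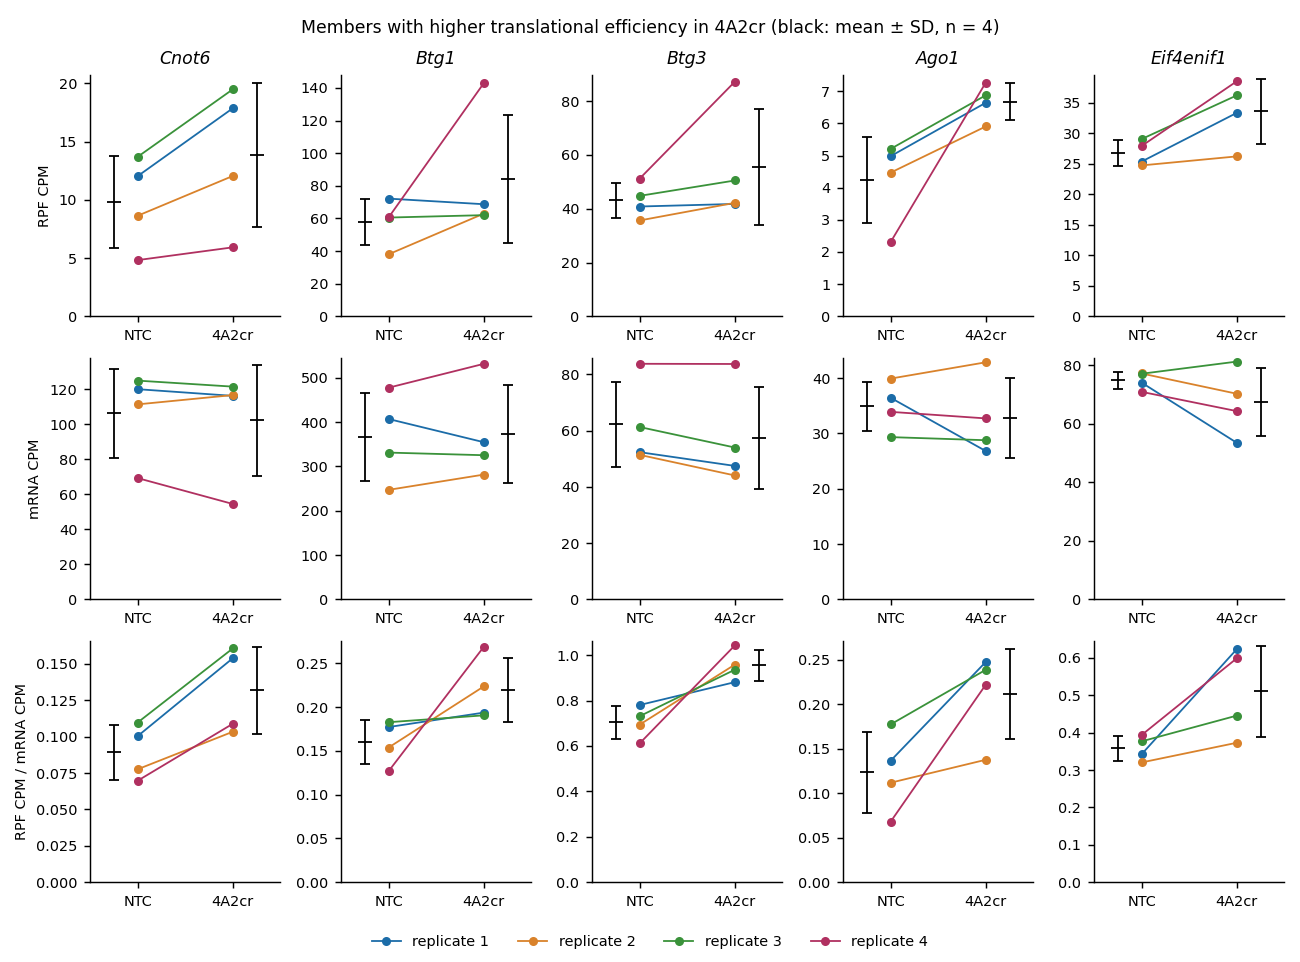
RPF CPM, mRNA CPM and their ratio (rows, axes from 0) for the 5 genes whose translational efficiency rose in KM4A2cr, with a line joining the KMNTC and KM4A2cr library of each replicate and the mean ± SD of 4 libraries in black. The ratio is higher in KM4A2cr in 4 of 4 pairs for each gene, while *Btg1* and *Btg3* RPFs are highest in replicate 4 of KM4A2cr, at 143 and 87.2 CPM.

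Decapping and the decay behind it showed no called change in any comparison. DCP2 is the decapping enzyme, DCP1A and DCP1B activate it, EDC3, EDC4, PATL1 and the LSM1 ring enhance it, DDX6 and the LSM14 proteins link it to translational repression, and XRN1 degrades the uncapped body. Of the 10 genes tested in RPFs, *Edc4* (log2 fold change -0.37, SE 0.17) and *Edc3* (-0.36, SE 0.18) had the lowest values and *Dcp2* (0.22, SE 0.21) the highest. *Edc4* footprints were 59.6, 67.5, 52.0 and 45.1 CPM in KMNTC and 39.6, 47.4, 32.97 and 56.5 CPM in KM4A2cr, so that replicates 1 to 3 were lower and replicate 4 was higher. Without replicate 4, *Edc4* fell by 0.58 (adjusted p = 0.00226 by edgeR) and *Edc3* by 0.53 (adjusted p = 0.0203) in RPFs. The helicase *Ddx6* had an RPF log2 fold change of -0.07 (95% interval -0.37 to 0.23) and a mRNA change of -0.01 (-0.33 to 0.31), and *Xrn1* had -0.08 (-0.43 to 0.27) and 0.05 (-0.24 to 0.34). RPFs of *Xrn1* were counted on an isoform of 3093 nt with 23.7% of the gene's total RNA counts, against 10256 nt for the longest.

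In total RNA, *Lsm1* was the member nearest to a call. Its mRNA was 79.5, 45.6, 67.1 and 41.8 CPM in KMNTC and 55.8, 39.1, 50.2 and 28.3 CPM in KM4A2cr, lower in 4 of 4 pairs, with overlapping groups. The log2 fold change of -0.42 (SE 0.12, 95% interval -0.70 to -0.15) had an adjusted p of 0.1003 by edgeR. It passed the threshold without replicate 4 (adjusted p = 0.00958), and not without replicate 1, 2 or 3 (0.295, 0.304 or 0.4505). The RPF tables list *Lsm1* at 0 in all 8 libraries. The transcript used there was an isoform of 343 nt that held 13.7% of the gene's total RNA counts, against 2663 nt for the longest isoform. Footprints on sequence that only the longer isoform holds are not in these counts. The 20 first and 10 final codons were also left out. Why *Lsm1* stood at 0 was not tested. *Patl1* mRNA had a log2 fold change of 0.32 (SE 0.14, adjusted p = 0.248 by edgeR), above 0 in 4 of 4 pairs, and *Dcp2* mRNA one of 0.27 (SE 0.14, adjusted p = 0.327). RPFs of *Dcp2* were counted on an isoform of 398 nt with 4.6% of the gene's counts, so its footprint value does not cover sequence outside that isoform.

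Among the Argonaute and GW182 genes, *Ago1* had the largest efficiency change of the 42 genes. *Ago1* RPFs were 4.98, 4.47, 5.20 and 2.31 CPM in KMNTC and 6.64, 5.90, 6.87 and 7.27 CPM in KM4A2cr, so the groups do not overlap. The RPF log2 fold change was 0.60 (SE 0.23, 95% interval 0.08 to 1.12) and did not pass (adjusted p = 0.158 by edgeR). *Ago1* mRNA was 36.5, 39.9, 29.3 and 33.9 CPM in KMNTC and 26.8, 42.9, 28.8 and 32.7 CPM in KM4A2cr, without a common direction. Its efficiency rose by 0.69 (SE 0.21, adjusted p = 0.0964 by edgeR) and lost the call without any one replicate, with adjusted p of 0.431, 0.206, 0.265 and 0.138 without replicates 1 to 4. It rests on 11 to 55 RPF counts per library, the fewest of the called genes.

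*Ago2* and *Ago3* did not pass in any comparison. *Ago2* had a log2 fold change of 0.33 in RPFs (SE 0.16) and 0.15 in mRNA (SE 0.13). *Ago3* mRNA was 35.8, 27.97, 26.1 and 50.8 CPM in KMNTC and 37.9, 39.6, 36.9 and 64.5 CPM in KM4A2cr, higher in 4 of 4 pairs (log2 fold change 0.36, SE 0.13, adjusted p = 0.172 by edgeR), while its RPF value was -0.12. The ratio of *Ago3* RPFs to mRNA was 0.223, 0.238, 0.199 and 0.223 in KMNTC and 0.146, 0.143, 0.179 and 0.175 in KM4A2cr. These ratios did not overlap, but the efficiency change of -0.48 (SE 0.17) had an adjusted p of 0.168. The values of *Ago1* and *Ago3* thus lay on opposite sides, a difference between genes that was not tested. The GW182 scaffold genes *Tnrc6a*, *Tnrc6b* and *Tnrc6c* had RPF log2 fold changes of -0.01, -0.10 and 0.12.

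The sequence-specific recruiters bring CCR4-NOT to mRNAs with Pumilio or AU-rich elements. *Pum2* had a log2 fold change of -0.06 in RPFs (95% interval -0.41 to 0.30) and -0.03 in mRNA (-0.36 to 0.31). The tristetraprolin gene *Zfp36*, an immediate early gene, varied most between replicates, with differences of -0.34, -0.36, -0.61 and 1.36 on the log2 scale in RPF pairs 1 to 4. Its RPF log2 fold change was 0.02 (SE 0.30) with all replicates and -0.46 without replicate 4 (adjusted p = 0.0441 by edgeR), so its direction was set by that replicate. *Zfp36l2* mRNA was lower in 4 of 4 pairs (log2 fold change -0.33, SE 0.12, adjusted p = 0.187 by edgeR) while its RPFs stood at 0.03, giving an efficiency of 0.33 (SE 0.12, adjusted p = 0.157). *Nanos1* was not tested in RPFs, where it had 0 to 9 counts per library, and had a mRNA log2 fold change of -0.22 (SE 0.23).

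The last group joins the poly(A) tail to the cap and to nonsense-mediated decay. *Eif4enif1* encodes 4E-T, which binds the cap-binding protein eIF4E and represses translation of deadenylated mRNAs, and it rose in translational efficiency. Its RPFs were 25.3, 24.7, 29.0 and 27.9 CPM in KMNTC and 33.3, 26.2, 36.2 and 38.5 CPM in KM4A2cr, higher in 4 of 4 pairs, with groups that overlap through replicate 2 of KM4A2cr. Its mRNA was 74.1, 77.2, 77.1 and 70.9 CPM in KMNTC and 53.5, 70.2, 81.2 and 64.3 CPM in KM4A2cr. The RPF log2 fold change of 0.31 (SE 0.13) did not pass (adjusted p = 0.184 by edgeR), and the efficiency change was 0.48 (SE 0.13, adjusted p = 0.0666). Without replicate 1, 2, 3 or 4 the adjusted p of the efficiency change was 0.474, 0.165, 0.211 or 0.0432, and with the mRNA counts of the RPF isoform alone, which held 27.96% of the gene's counts, it was 0.206.

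*Upf1*, the helicase of nonsense-mediated decay, had values on the other side. Its RPFs were 114, 102, 83.7 and 69.2 CPM in KMNTC and 79.0, 77.6, 60.9 and 79.7 CPM in KM4A2cr, lower in replicates 1 to 3 and higher in replicate 4. The RPF log2 fold change was -0.30 (SE 0.15), that of mRNA 0.07 (SE 0.14) and that of efficiency -0.37 (SE 0.12, adjusted p = 0.137 by edgeR), the last below 0 in 4 of 4 pairs. Without replicate 4, *Upf1* fell by 0.46 in RPFs (adjusted p = 0.00527) and by 0.42 in efficiency (adjusted p = 0.0597). *Pabpc1* and *Pabpc4*, which coat the poly(A) tail and share much of their sequence, had RPF log2 fold changes of 0.17 (SE 0.12) and 0.19 (SE 0.17) and mRNA changes of 0.16 (SE 0.16) and 0.28 (SE 0.16), none called.

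Footprint change and mRNA change were nearly unrelated over these genes. Pearson's r between the 2 log2 fold changes was 0.06 over 42 genes, against 0.77 over the 9989 genes tested in both. The same sign in both was seen for 24 of 42 genes, against 7442 of the 9989. This is a description across genes, which share the same libraries and depth, and the members covered a narrower range of changes than all genes, from -0.37 to 0.60 in RPFs against -3.52 to 4.12.

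**Figure D4:**
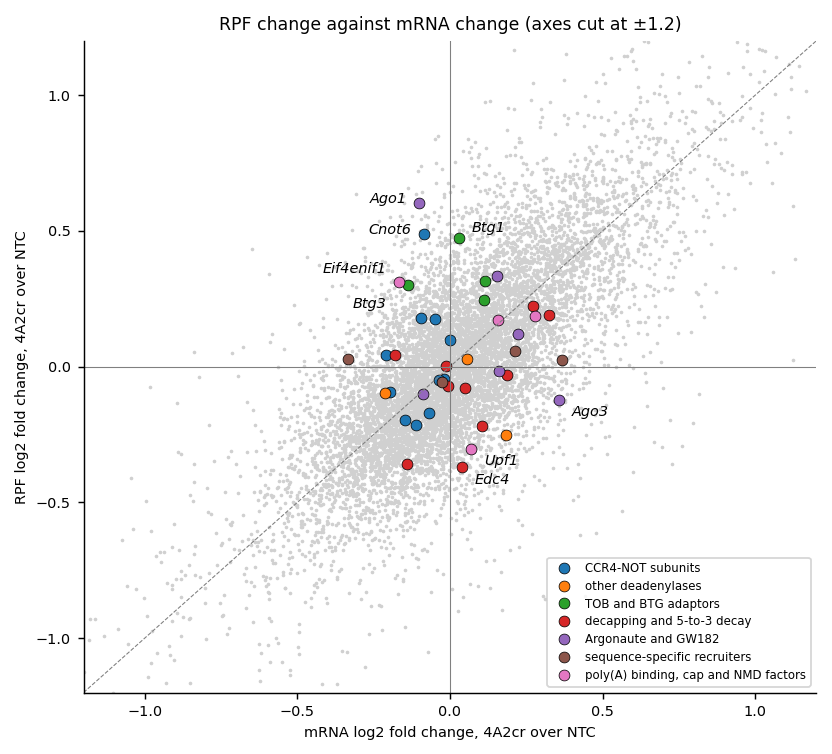
RPF log2 fold change (vertical axis) against mRNA log2 fold change (horizontal axis) of KM4A2cr over KMNTC, for 42 members coloured by role over all 9989 genes tested in both (grey), with both axes limited to ±1.2 and a dashed line of equal change. The 5 genes with a called efficiency change lie above the line at mRNA changes between -0.17 and 0.03, and *Edc4*, *Upf1* and *Ago3* lie below it.

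Replicate 4 differed from replicates 1 to 3 in these genes, as it did in many others. Its libraries of both cell lines lay outside the range of the other 6 libraries for 14 of 42 genes in RPFs (33.3%, against 37.1% of all tested genes) and for 17 of 44 in mRNA (38.6%, against 37.2%). *Zfp36l1*, which binds AU-rich elements, was higher there by 2.11 in RPFs and 1.39 in mRNA, and *Pabpc1* by 0.94 and 1.17, on the log2 scale. *Cnot6* was lower there by 1.29 and 0.94, and *Cnot11* by 1.36 and 1.07. The difference between the cell lines also moved, as the median of the members was -0.15, 0.00, 0.00 and 0.27 in RPF pairs 1 to 4 and -0.09, 0.06, -0.02 and 0.13 in mRNA pairs.

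Calls among the members depended on that replicate. Without replicate 4, 8 members were called in RPFs, 3 higher (*Cnot6*, *Pabpc1* and *Pabpc4*) and 5 lower (*Cnot2*, *Edc3*, *Edc4*, *Zfp36* and *Upf1*), while the share of all tested genes called in RPFs was 33.4%. In total RNA 5 were called, 2 higher (*Dcp2* and *Ago3*) and 3 lower (*Parn*, *Lsm1* and *Zfp36l2*), against 29.8% of all genes. In translational efficiency 4 were called, *Cnot6*, *Btg3* and *Eif4enif1* higher and *Upf1* lower, against 6.68%. In RPFs and total RNA the share of members called without replicate 4 was below that of all genes.

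**Figure D5:**
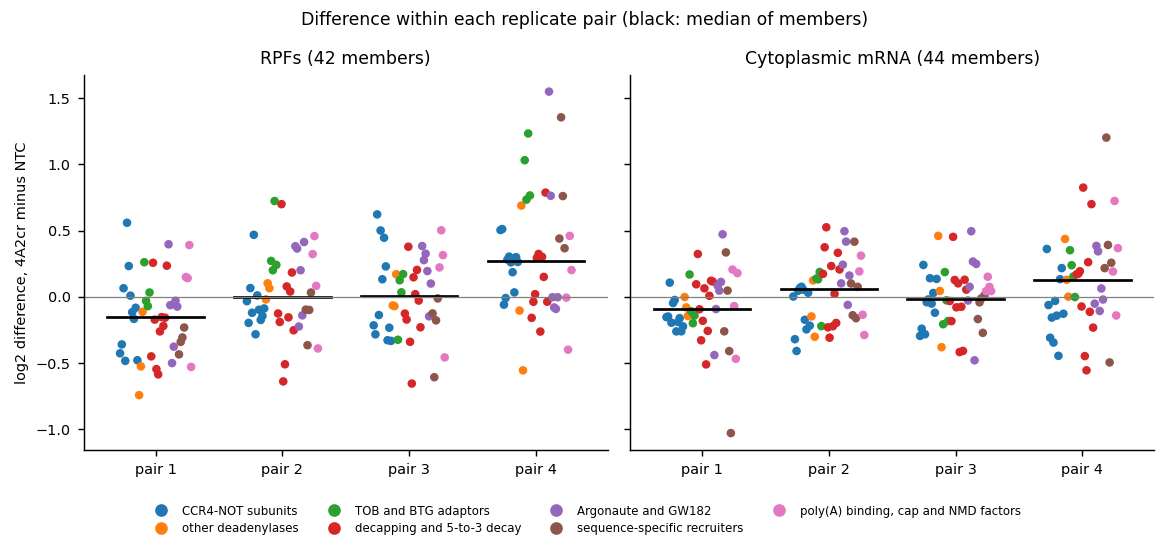
Log2 difference (KM4A2cr minus KMNTC) of each member within replicate pairs 1 to 4, for 42 members in RPFs and 44 in cytoplasmic mRNA, coloured by role, with the median of the members as a black bar. The RPF medians are -0.15, 0.00, 0.00 and 0.27, and pair 4 holds the largest differences, up to 1.55 for *Ago1*.

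Other genes of RNA decay and microRNA biogenesis were examined beside the members. Of 91 such genes, 81 were tested in RPFs, 1 rose (1.23%, against 6.6% of all tested genes) and 4 fell (4.94%, against 3.72%), and their median log2 fold change was -0.05. The lower calls were thus about as frequent as among all genes. In the list of the exosome and SKI complexes, which degrade RNA from the other end, 1 of 16 genes fell: *Exosc2*, an RNA-binding subunit of the exosome cap, by 0.73 in RPFs (SE 0.13, adjusted p = 0.0200 by edgeR) and by 0.44 in translational efficiency (adjusted p = 0.0696). *Exosc2* lies on chromosome 2, where the median over 833 genes in RPFs was -0.21 on the log2 scale against 0.00 elsewhere, and the part of this in its value was not tested. Of 8 tested genes of microRNA processing, *Xpo5*, which exports precursor microRNAs from the nucleus, fell by 0.61 in RPFs (SE 0.13, adjusted p = 0.0370) and by 0.44 in mRNA (adjusted p = 0.0859). Among 16 tested other deadenylation, decapping and poly(A) tail factors, *Angel1*, a relative of the CCR4-type deadenylases, rose by 0.62 (SE 0.17, adjusted p = 0.0749). In the same list the scavenger decapping enzyme *Dcps* fell by 0.56 (SE 0.16, adjusted p = 0.0785) and *Nudt16*, a Nudix hydrolase with decapping activity, by 0.98 (SE 0.21, adjusted p = 0.0344), each in 4 of 4 pairs.

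The remaining lists held few calls or none. In RPFs, 0 of 14 nonsense-mediated decay genes, 0 of 6 genes of the LSM ring and 0 of 21 other RNA-binding decay and repression factors were called by edgeR, with 0, 0 and 3 at an unadjusted p under 0.05. In translational efficiency 2 of 80 of these genes rose, the poly(A) binding protein *Pabpn1* of the nucleus by 0.44 (adjusted p = 0.0502 by edgeR) and *Paip1*, a partner of PABPC1, by 0.37 (adjusted p = 0.0785), and 2 fell, *Exosc2* and the cap-binding repressor *Eif4e2*, the latter by 0.39 (adjusted p = 0.0986). These are 2.5% in each direction, against 1.87% higher and 1.04% lower of all tested genes. *Pabpn1*, *Paip1* and *Eif4e2* were named after their values were seen.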

How the data were processed

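The RPF tables deposited by the authors hold whole-number counts, 1 row per transcript. The authors trimmed reads with Cutadapt 1.18, aligned them with BBmap to GENCODE vM27 protein-coding transcripts, 1 transcript per gene (the one with the highest mean TPM), collapsed duplicates with UMI-tools 1.0.1 and kept fragments of 28 to 33 nt, without the 20 first and 10 final codons. Total RNA was deposited by the authors as TPM and expected counts of each isoform from RSEM 1.3.3 after Bowtie2 2.3.5.1. Here expected counts were summed per gene and rounded. A transcript missing from an RPF table was taken as 0.

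RPFs and total RNA were fitted separately with edgeR 4.0.16 in R 4.3.3 (quasi-likelihood test, filterByExpr filter, TMM factors) on cell line, with the replicate number as a block. P-values were adjusted by Benjamini-Hochberg over every gene tested (10291 in RPFs, 10880 in total RNA, 9989 in translational efficiency), with a threshold of 0.1. Translational efficiency came from 1 model of all 16 libraries, as the line-by-assay term beside lysate and the replicate within each assay. Intervals are 95% intervals of the fit. A change of all footprints or all mRNA together leaves no trace after this normalisation. The code was tested on simulated data.

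Replicate numbers pair the libraries: the labels call replicates experiments of different days, and the same-numbered libraries deviated together from their cell line means, with a correlation over genes of 0.763, 0.782, 0.575 and 0.687 in RPF pairs 1 to 4 and of 0.756, 0.736, 0.611 and 0.708 in total RNA. Alternatives were no block, DESeq2 1.42.0, other size factors (RLE, upper quartile, library size), other filters, a threshold of 0.05, mRNA counts of the RPF isoform alone, and each replicate left out.

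The members and lists were chosen with earlier results of these data known. All 44 members were named by role. Values in every library were given for members past the threshold, for *Cnot1* and the catalytic subunits, and for some genes near the threshold, chosen after their values were seen. From each other list up to 3 genes called in RPFs were named. Of the 44 members, 21 had 1 isoform in the tables and 8 had an RPF isoform with under 25% of the gene's total RNA counts. The 8 were *Cnot2*, *Cnot4*, *Cnot6l*, *Btg1*, *Dcp2*, *Lsm1*, *Xrn1* and *Pabpc4*. Chromosomes were read from RefSeq (GRCm38.p6), which is not the build of the files, and coordinates are left out. Another engineered allele of the tumour mouse is not reported here.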

Additional observations from a re-analysis of the deposited data

Results flagged for a closer look

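For 5 members the footprint change differed from the mRNA change by the interaction test, with efficiency changes of 0.54 for *Cnot6*, 0.44 for *Btg1*, 0.44 for *Btg3*, 0.69 for *Ago1* and 0.48 for *Eif4enif1*. Each was higher in 4 of 4 pairs and had an adjusted p between 0.0533 and 0.0964 by edgeR. All 5 calls were lost without replicate 1, 2 or 3, and under DESeq2 *Cnot6* was the only one kept. Over all tested genes, higher efficiency calls fell from 187 to 5, 33 and 12 without replicates 1, 2 and 3.

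Single libraries stood far from the other 3 of their group in 5 of the 44 groups examined (11 genes, Dixon's ratio at the 95% level), and all 5 were replicate 4. The nominal rate of 1 in 20 holds for independent groups, whereas these share libraries, and no rate over all genes was computed. Replicate 4 lay outside the range of the other libraries for 37.1% of all tested genes in RPFs and 37.2% in mRNA. These were *Btg1* RPFs in KM4A2cr at 143 CPM, *Cnot6* mRNA in KM4A2cr at 54.4 CPM, *Eif4a2* RPFs in KMNTC at 389 CPM and in KM4A2cr at 346 CPM, and *Eif4a2* mRNA in KMNTC at 524 CPM.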

How the results depend on the processing

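The single higher RPF call, *Cnot6*, was lost (0 higher) under DESeq2, library size only, upper-quartile factors, no replicate block and a threshold of 0.05, and was made under the other scaling and both filters. With a replicate left out, 0 to 3 members were higher and 0 to 5 lower in RPFs, 0 to 2 higher and 0 to 3 lower in total RNA, and 0 to 3 higher and 0 to 1 lower in translational efficiency, the highest of each without replicate 4. With a replicate left out, the RPF change of *Zfp36* ranged from -0.46 (without replicate 4, reversed) to 0.28, and it was 0.34 without the replicate block. In total RNA 1 member was lower, *Lsm1*, under RLE factors, upper-quartile factors and both filters, and 2 under library size only, where the member median moved to -0.17 while the median of all genes was -0.15. In translational efficiency 1 member was higher under DESeq2, 3 with the RPF isoform only, 2 under library size only, and 0 without the replicate block or at a threshold of 0.05. Under RLE factors and the filter of 1 CPM in 4 libraries the same 5 genes were called. Upper-quartile factors kept 4, without *Ago1* (adjusted p = 0.105 by edgeR). With no filter beyond 1 count 6 members were called, while higher calls over all genes rose from 187 to 319. The 6 were the same 5, at adjusted p from 0.00509 (*Btg1*) to 0.0263 (*Ago1*) by edgeR, and *Zfp36l2* (0.0925). In translational efficiency DESeq2 gave no adjusted p for 18 of 42 members, *Ago1* among them. Over all tested genes, higher RPF calls fell from 679 to 157, 94 and 29 without replicates 1, 2 and 3. Those in total RNA fell from 473 to 134, 102 and 50. The causes were not tested, beyond the fewer libraries of each left-out fit.

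Without the replicate block 0 genes of any kind were called in RPFs, total RNA or translational efficiency, so each call rests on the pairing. Higher calls were 63.9% of all RPF calls with TMM, 53.5% with upper-quartile factors and 29.8% with library size only. For total RNA they were 70.9%, 60.1% and 23.2%, and for translational efficiency 64.3%, 62.7% and 78.8%, with 75.5% under DESeq2. Library size alone put the median of all genes at -0.14 in RPFs and turned the sign of 9 of 42 members there. Counts as low as 11 RPFs per library for *Ago1* and 22 for *Cnot6* limit these calls.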
